A study of Mus musculus with 4 samples.

Results

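The repeats described here are the ERVL and MaLR elements, long terminal repeat (LTR) retrotransposons of the mouse genome. They were taken from a table of RNA read counts as every row with the class LTR and the family ERVL or ERVL-MaLR, whatever its counts. This gave 220 of the 1445 repeat rows, 111 in the family ERVL and 109 in the family ERVL-MaLR. The rows were grouped by name alone. There were 56 rodent-specific names (MT2, MERVL, ORR1 and MTA to MTE), 70 older mammalian names and 94 remaining names. All 70 older names were MLT names, since the table has 0 rows named MST and 0 named THE.

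Total RNA of wild-type mouse embryonic fibroblasts (MEF cells), a culture of connective tissue cells from embryos, was sequenced after depletion of ribosomal RNA. The 2 untreated libraries were compared with 2 libraries of the same kind of cells exposed to genistein, a plant isoflavone, at 50 µM for 24 h. The study asked how genistein acts on transcripts of repeats. Nothing in the labels says that replicates came from separate cultures, so the p-values measure the spread between these libraries, which may be technical.

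ERVL elements are relics of retroviruses, and MERVL is the mouse member that still holds long open reading frames. A MERVL provirus is flanked by MT2_Mm LTRs and is known for a burst of transcription in the 2-cell embryo, where its LTR also serves as a promoter of host genes. MaLR elements are nonautonomous relatives that code for no retroviral proteins. Their rodent-specific branches, ORR1 and MT, are known for LTRs that act as promoters in mouse oocytes, while MLT elements are old insertions shared by many mammals. In the names, a row ending in "-int" is the internal part of an element and a row without it is the LTR, which is found at the ends of an element or alone as a solo LTR. Each row sums the reads of all copies in the genome, so it has no single coordinate.

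The libraries held 28591958 to 31464284 counts. The share of ERVL and MaLR rows was 0.538% and 0.582% in untreated cells, against 0.954% and 0.941% after genistein. That of all repeats was 11.97% and 12.52% in untreated cells, against 14.64% and 13.57%. Of the fibroblast markers, 9 of 11 were high enough to be tested, among them the collagen gene Col1a1 with 76190, 81280, 72060 and 68040 normalised counts, while Thy1 had no count and Lum 10 or fewer in each library. Normalised counts were brought to a common effective library size, the mean over the libraries, and each series of 4 values here runs untreated 1, untreated 2, genistein 1, genistein 2.

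ERVL and MaLR rows were higher after genistein. The 171 rows tested added up to 165000 and 177900 normalised counts before genistein, against 281400 and 272100 after it. This is 171400 ± 9118 against 276800 ± 6642 (mean ± SD, n = 2), a ratio of 1.61, and the groups did not overlap. Of the 220 rows, 171 passed the filter on low counts and were tested, and 5 of these passed through the genistein libraries alone, with both untreated libraries under the minimum. Another 15 had no count in any library. In edgeR's quasi-likelihood test, adjusted over all 17358 genes and repeats tested, 142 of the 171 rows rose at an adjusted p under 0.05, 0 fell and 29 did not pass. Among all genes and repeats, 36.2% were called higher and 36% lower by the same rule, and among all 1118 tested repeats 76.3% were called higher. Thus the share of ERVL and MaLR rows called higher, 83%, is to be read against 76.3% and not against the share among genes.

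The median log2 fold change of the tested rows was 0.74, with quartiles of 0.59 and 0.91. The median of all tested repeats was 0.69 and that of all tested genes was −0.03. Both genistein libraries lay above both untreated libraries in 153 of the 171 rows, which is beside 43.4% of all genes and repeats and 83.8% of all repeats. The 153 include the 5 rows that passed the filter on low counts through the genistein libraries alone. In 17 rows the groups overlapped, and in 1 row, MLT1H-int, both genistein libraries lay below. MLT1H-int had 60.94, 52.93, 31.88 and 49.6 normalised counts and did not pass the test, with an adjusted p of 0.06 in edgeR.

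**Figure D1:**
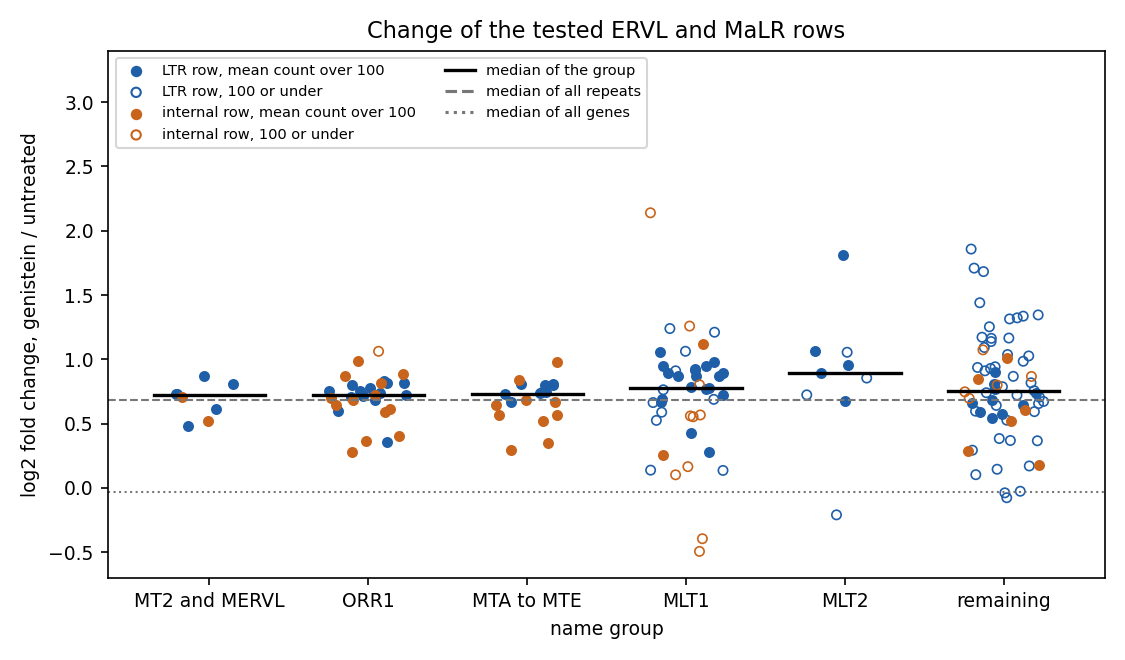
Log2 fold change (genistein over untreated, y axis) of each of the 171 tested ERVL and MaLR rows, by name group (x axis), with LTR rows in blue, internal rows in orange and rows with a mean normalised count of 100 or under as open circles; black bars are group medians. The group medians lie between 0.72 and 0.90, all above the dashed line at 0.69 for all repeats, and the rows of low count spread most.

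With the thresholds of the study, which add a log2 fold change beyond 1 in either direction and a mean over the libraries above 100 normalised counts, 5 rows were higher and 0 lower. By this rule 3.91% of all genes and repeats were higher and 3.92% lower, and 3.67% of all repeats were higher. The 5 rows were MLT2C1, MLT-int, MLT2B4, MLT1F2 and RMER15-int, none of them among the rodent-specific names as grouped here. MLT2C1 and MLT-int, with untreated means of 60 and 97.89, passed the mean of 100 only through the genistein libraries. A log2 fold change over 1 was seen in 29 rows in all, so that most had a mean count of 100 or under. Among the 29 were MLT1C-int, MER73, LTR84a and LTR83, which had passed the filter on low counts through the genistein libraries alone. The number past the thresholds was 17 without the library untreated 2 and 9 without genistein 2, with each remaining library of the group assumed to vary like the other group.

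MLT2C1, an old ERVL LTR, had the highest change of the rows with a mean count over 100. It reached that mean only through the genistein libraries, with means of 60 in untreated and 210.1 in genistein cells. Its normalised counts were 46.95, 73.05, 213.8 and 206.5. Both genistein libraries were far above both untreated ones, and the untreated libraries differed from each other by more than the genistein libraries did. The log2 fold change was 1.81 ± 0.16 (SE, adjusted p = 3.6e-08, edgeR). Leaving out a library gave values from 1.52 to 2.16. RMER15-int, the internal part of a rodent ERVL element, was more abundant, with 869.1, 934.8, 1826 and 1797 normalised counts. Its log2 fold change was 1.01 ± 0.05 (SE, adjusted p = 3.1e-11, edgeR).

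The most abundant rows were rodent-specific MaLR LTRs. MTD, a MaLR LTR, led with 18540, 20200, 34400 and 33330 normalised counts, followed by MTC with 10130, 11460, 18260 and 17560. In both, the genistein libraries lay close together and above the untreated libraries. The log2 fold changes were 0.81 ± 0.05 for MTD (SE, adjusted p = 5.2e-10) and 0.73 ± 0.06 for MTC (SE, adjusted p = 6.7e-09). The leading ORR1 rows were the LTRs ORR1D1, at 5461, 6127, 9895 and 9391, and ORR1A2, at 4193, 4445, 7396 and 7154 normalised counts. They rose by 0.74 ± 0.05 and 0.75 ± 0.03 on the log2 scale (SE, adjusted p = 1.3e-09 and 1.1e-11).

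MERVL itself was present before treatment. MERVL-int, the internal part with the retroviral reading frames, had 8266, 8634, 11880 and 12330 normalised counts. It rose by 0.52 ± 0.05 on the log2 scale (SE, adjusted p = 2.9e-08). MT2_Mm, the LTR of MERVL, had 1854, 2062, 3690 and 3474 normalised counts and rose by 0.87 ± 0.05 (SE, adjusted p = 7.8e-11), the highest change of the 8 rows of the MT2 and MERVL group. The internal row of a related element, MERVL_2A-int, had 4587, 4971, 7834 and 7794 normalised counts and rose by 0.71 ± 0.04 (SE, adjusted p = 6.7e-11). The lowest change of the group was that of the LTR row MT2B, 0.48 ± 0.04.

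**Figure D2:**
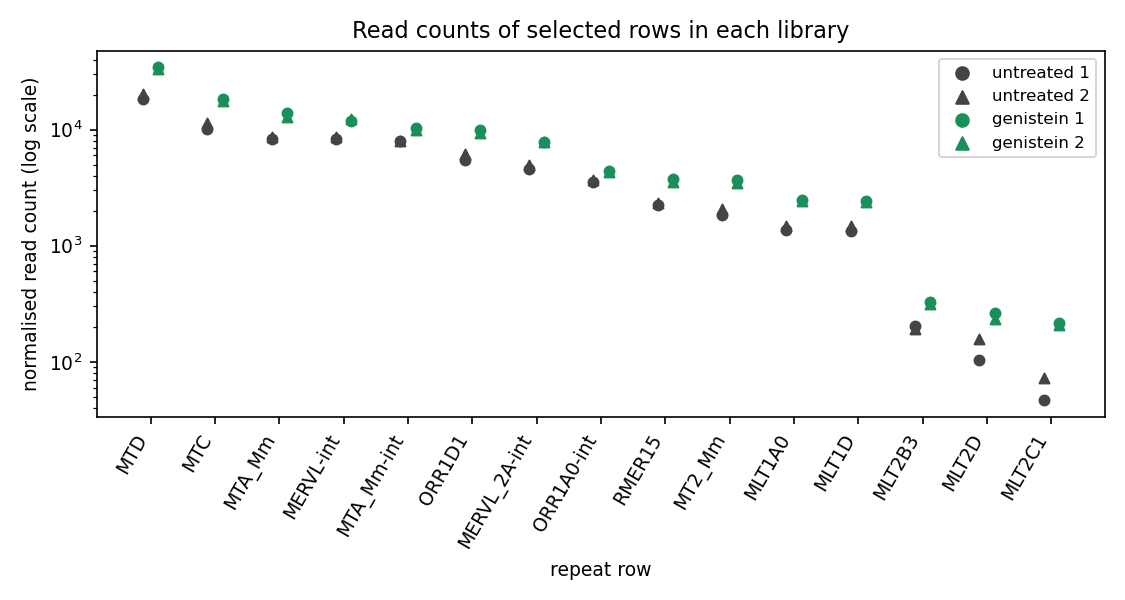
Normalised read counts (y axis, log scale) of 15 ERVL and MaLR rows (x axis) in each library, with untreated libraries in grey and genistein libraries in green, replicate 1 as circles and replicate 2 as triangles. In each row shown both genistein libraries lie above both untreated libraries, from MTD at 18540 to 34400 down to MLT2C1 at 46.95 to 213.8.

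Genes that are transcribed with MERVL in the 2-cell embryo had few counts or none. Of 24 such genes listed, among them the Zscan4 cluster, 22 were found in the table, 12 of these had no count and 0 were high enough to be tested. Their counts summed to 8, 9, 16 and 6 in the 4 libraries. Of the listed activators, Duxf3, Dppa2 and Dppa4 had no count, and Nelfa, a subunit of the negative elongation factor, fell by 0.84 ± 0.06 on the log2 scale (SE, adjusted p = 1.6e-09, edgeR). Oocyte genes, such as those of the zona pellucida, likewise had few counts, with 7, 2, 11 and 10 counts over 14 genes, 8 of which had none.

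Of 26 listed genes known to repress ERVL or other retroelements, 25 were tested, 18 fell, 0 rose and 7 did not pass. Of all tested genes, 38.2% fell, and 4.16% fell past all thresholds. Their median log2 fold change was −0.49, beside −0.03 for all genes. The 3 that passed all thresholds were Ncl, which codes for nucleolin, Pcgf6, of a noncanonical Polycomb complex, and Suv39h2, a histone H3 lysine 9 methyltransferase. Ncl had 33900, 32410, 14090 and 13120 normalised counts and fell by 1.28 ± 0.05 on the log2 scale (SE, adjusted p = 1.8e-12). Pcgf6 fell by 1.23 ± 0.07 and Suv39h2 by 1.01 ± 0.06 (SE, adjusted p = 1.2e-10 and 3.2e-10). Trim28, a corepressor recruited by zinc finger proteins, fell by 0.95 ± 0.04 from 12020 and 11630 to 6178 and 6024 normalised counts. Setdb1, the methyltransferase that acts with it, had a log2 fold change of −0.07 ± 0.04 (SE, adjusted p = 0.072). These changes lie beside those of the repeats, and their part in them was not tested.

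The rodent-specific names, which by the name rule leave out MT-int and the RMER and RLTR rows, were compared with the older mammalian names. MT-int had a log2 fold change of 0.18 and did not pass (adjusted p = 0.08, edgeR). All 55 rodent-specific rows tested rose, with log2 fold changes from 0.28 to 1.06, and in all 55 both genistein libraries lay above both untreated ones. Of the 51 older rows tested, 41 (80.4%) rose and 10 did not pass, and in 88.2% both genistein libraries lay above. Of all tested repeats, 76.3% were called higher, and in 83.8% both genistein libraries lay above both untreated ones. The shares of rodent-specific and older rows differ in precision. A mean count over 100 was reached by 54 of the rodent-specific rows and 26 of the older rows. The medians were 0.72 for rodent-specific and 0.79 for older names, a difference of −0.06. Over rows with a mean count over 100, the medians were 0.72 and 0.88, a difference of −0.16. Among these older rows, MLT2C1, MLT-int and MLT1H1 reached that mean only through the genistein libraries. Over all tested rows, the SD of this difference between replicates was 0.040. Leaving out a library gave −0.13 without untreated 2, −0.088 without genistein 1, −0.037 without untreated 1 and −0.035 without genistein 2.

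The sums of reads gave a comparison that needs no scaling between libraries. The log2 ratio of rodent-specific to older counts was 3.82 and 3.77 in the untreated and 3.70 and 3.67 in the genistein libraries. The groups did not overlap, and the difference was −0.11. The smallest p that an exact two-sided permutation test allows for 2 against 2 values is 0.333, so this and the ratios that follow are given as values. Normalised counts of the tested rodent-specific rows summed to 150400 ± 7884 and 241500 ± 6034 (SD, n = 2), a ratio of 1.61. Those of the tested older rows summed to 10840 ± 823.6 and 18730 ± 156.3, a ratio of 1.73.

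Among the older names, the MLT1 LTRs carried most reads. MLT1A0 had 1369, 1484, 2485 and 2428 normalised counts and MLT1D had 1343, 1482, 2434 and 2387. Their log2 fold changes, 0.79 ± 0.04 and 0.77 ± 0.05 (SE), were near the median of the older names. The MLT2 rows, which are old ERVL LTRs, were sparser, with a median change of 0.90 over 9 rows. MLT2B3 had 204.8, 192.7, 324.4 and 311.8 normalised counts and rose by 0.68 ± 0.09. MLT2D had 102.9, 157.7, 265.4 and 235.8, with untreated libraries that stood apart, and rose by 0.95 ± 0.15. The lowest changes over a mean count of 100 were 0.25 ± 0.13 for MLT1-int, which did not pass (SE, adjusted p = 0.09), and 0.28 ± 0.11 for MLT1K (SE, adjusted p = 0.031, and 0.2 in DESeq2).

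The remaining names included 7 RMER or RLTR rows, all called higher, and 58 other tested rows. Of those 58, 39 (67.2%) were called higher and 19 did not pass, beside 76.3% called higher among all tested repeats. RMER15, a rodent LTR, was the most abundant, at 2247, 2332, 3724 and 3515 normalised counts. It rose by 0.66 ± 0.04, and RMER10A by 0.54 ± 0.04. MT-int, whose name has no letter after MT and so falls outside the rodent-specific rule, had 269.7, 275.3, 314.1 and 301.6 normalised counts. Its log2 fold change of 0.18 ± 0.09 did not pass (SE, adjusted p = 0.08). ERVL-B4-int rose by 0.28 ± 0.07 (SE, adjusted p = 0.0012).

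Internal rows changed less than LTR rows in the rodent-specific group. The median log2 fold change was 0.66 over 26 internal rows and 0.74 over 29 LTR rows. The log2 ratio of summed internal to summed LTR counts was −1.22 and −1.27 in the untreated and −1.47 and −1.43 in the genistein libraries, so that the groups did not overlap. The same was seen for MERVL and its LTR. The log2 ratio of MT2_Mm to MERVL-int was −2.16 and −2.07 before and −1.69 and −1.83 after genistein. In the older names, the median log2 fold changes were 0.56 over 12 internal rows and 0.87 over 39 LTR rows. Only 2 of these internal rows had a mean count over 100.

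For 34 internal rows, the LTR row of the same stem was also tested. The internal row had the lower change in 22 pairs and the higher in 12. Within libraries, the ratio of internal to LTR counts was below both untreated values in 14 pairs, above both in 8 and overlapped in 12. The 8 include MLT1C, whose internal row passed the filter on low counts through the genistein libraries alone. In the 12 pairs of other LTR families that share a stem, the ratio was below both in 25%, above both in 50% and overlapped in 3 pairs. Of the 9 pairs of MTA to MTE names, 7 were below, 1 above and 1 overlapping, and of the 13 ORR1 pairs 3 were below, 4 above and 6 overlapping. Pairs share their libraries, and the difference between these name groups was not tested.

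The largest drop among the rodent-specific pairs was that of MTEa. MTEa-int rose by 0.29 ± 0.07 and its LTR row MTEa by 0.80 ± 0.04, and the log2 ratio of their counts went from −2.66 and −2.79 to −3.21 and −3.25. ORR1A2, ORR1A4 and MTA_Mm followed with differences of −0.35, −0.35 and −0.32 between internal and LTR change. MTA_Mm-int was nearly as abundant as its LTR before treatment, with 8000, 7971, 10350 and 10000 normalised counts against 8231, 8702, 13890 and 12980 for MTA_Mm. The internal row rose by 0.35 ± 0.04 and the LTR by 0.67 ± 0.05. In the opposite direction, the internal row rose more than the LTR in RMER15 by 0.35, in ORR1F by 0.31 and in ORR1C2 by 0.28, and in these the ratio was above both untreated values in both genistein libraries.

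**Figure D3:**
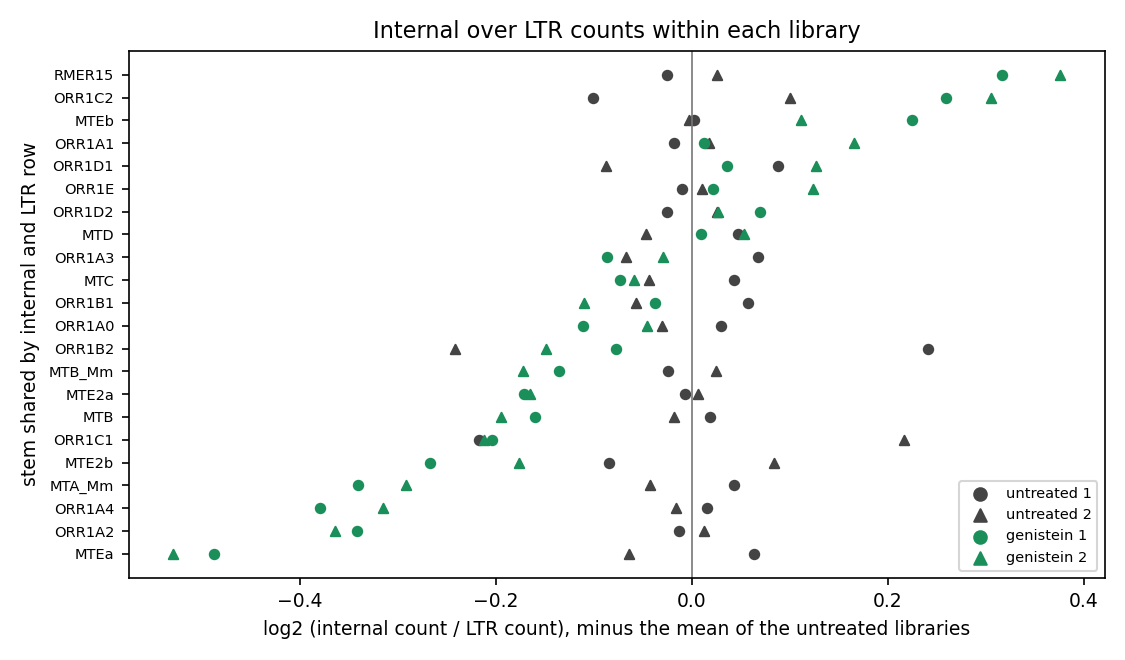
Log2 ratio of internal to LTR counts in each library, minus the mean of the untreated libraries (x axis), for the 22 stems whose internal and LTR rows both had a mean count over 100 (y axis), with untreated libraries in grey and genistein libraries in green. Genistein libraries lie to the left of both untreated libraries in 10 stems, with MTEa farthest, and to the right in 5, with RMER15 farthest.

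The names carry a letter that orders the subfamilies, and the following order was looked at after the values were seen. Among ORR1 internal rows, the median log2 fold change was 0.40 for the 5 ORR1A rows, 0.66 for ORR1B, 0.79 for ORR1C, 0.82 for ORR1D, 0.87 for ORR1E and 1.06 for ORR1F. ORR1A rows are known as the younger and ORR1F and ORR1G as the older insertions. ORR1E and ORR1F rest on 1 internal row each, the SE of ORR1F-int was 0.15 and the 2 ORR1C rows lay at 0.59 and 0.99, so that neighbouring letters were not separated beyond this spread. The 5 ORR1A internal rows also differed among themselves, from 0.28 for ORR1A0-int to 0.72. The medians of the LTR rows covered a narrower range. They were 0.71 for ORR1A, 0.75 for ORR1B, 0.76 for ORR1C, 0.79 for ORR1D and 0.80 for ORR1E, the same order as in the internal rows, and then 0.75 for ORR1F and 0.72 for ORR1G. ORR1A0, at 0.36, was the lowest LTR row.

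In the MT names, the internal row of MTA was again low, at 0.35, against 0.61 for MTB, 0.67 for MTC and 0.84 for MTD. The 5 MTE internal rows broke this order, with a median of 0.57 and a range from 0.29 for MTEa-int to 0.98 for MTEb-int. The MT LTR rows lay close together, with medians by letter from 0.67 to 0.81.

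**Figure D4:**
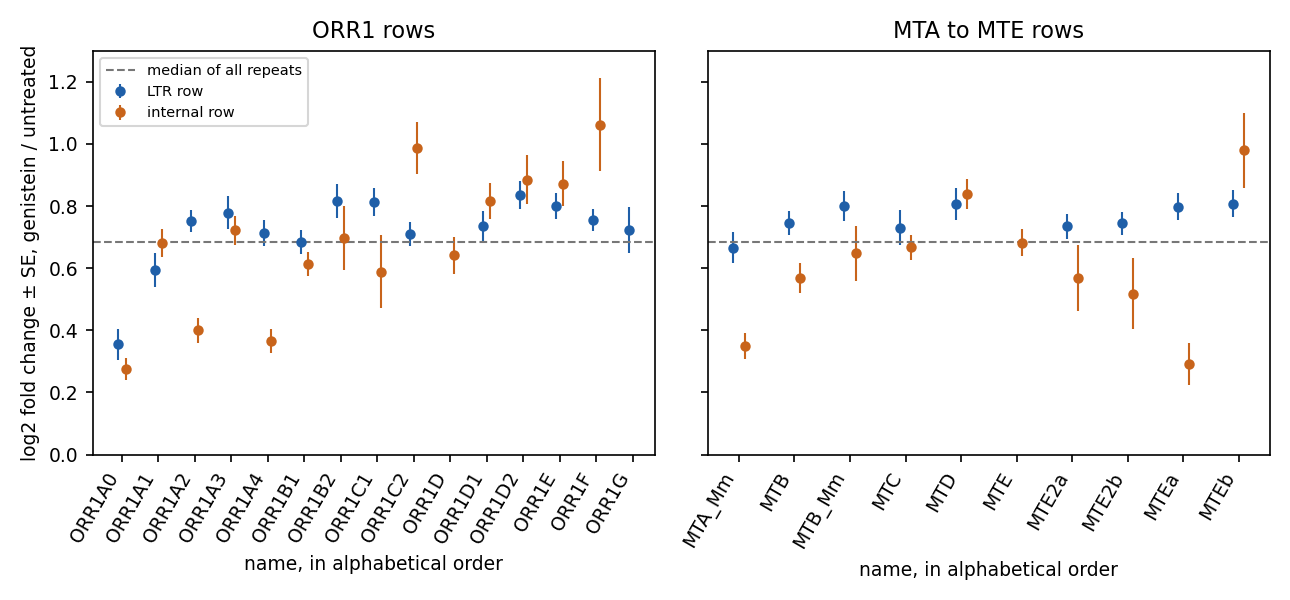
Log2 fold change (genistein over untreated, y axis) with its standard error for each tested ORR1 row (left) and MTA to MTE row (right) in alphabetical order (x axis), LTR rows in blue and internal rows in orange; the dashed line is the median of all tested repeats, 0.69. The LTR rows lie close to the line apart from ORR1A0 at 0.36, while the internal rows spread from 0.28 for ORR1A0-int to 1.06 for ORR1F-int.

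Since repeats rose as a whole, the rows were also tested among the repeats alone, with library sizes scaled over the 1118 tested repeats. The median of all repeats then was −0.01 and that of the ERVL and MaLR rows 0.05. By an adjusted p under 0.05, 23 of the 171 rows were higher than the repeats in general and 18 lower. Of all repeats, 8.41% were higher and 14.8% lower by this rule, beside 13.5% and 10.5% of the ERVL and MaLR rows. Without 1 library at a time, 9 to 17 rows were higher, with 12 without untreated 1, 9 without genistein 1 and 11 without genistein 2, and 12 to 17 were lower.

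Among rodent-specific LTR rows, 9 of 29 (31%) were higher than the repeats in general and 2 (6.9%) lower. Among rodent-specific internal rows, 2 of 26 (7.69%) were higher and 7 (26.9%) lower. Of all repeats, 8.41% were higher and 14.8% lower by this rule. The 9 higher LTR rows had small changes, from 0.10 for MTEa to 0.18 for MT2_Mm, with adjusted p up to 0.05 (edgeR). The lower rows included ORR1A0-int, with a log2 fold change of −0.42 ± 0.03 relative to the repeats (SE, adjusted p = 4.8e-06, edgeR), and its LTR ORR1A0, with −0.34 ± 0.04 (SE, adjusted p = 5.6e-05). ORR1A2-int, ORR1A4-int, MTA_Mm-int and MTEa-int were lower by the same test, at −0.29, −0.33, −0.35 and −0.40. All of these calls were kept with each library left out in turn. In the fit of genes and repeats together these rows rose, from 0.28 to 0.40 on the log2 scale, so the direction given for them depends on what they are compared with.

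The same holds for MERVL. Relative to the repeats, MT2_Mm was higher by 0.18 ± 0.04 (SE, adjusted p = 0.0046) and MERVL-int was at −0.18 ± 0.04 (SE, adjusted p = 0.0049). Without genistein 1, neither passed, with 0.15 for MT2_Mm (adjusted p = 0.055) and −0.14 for MERVL-int (adjusted p = 0.097). MLT2C1, at 1.12 ± 0.15, RMER15-int, at 0.31 ± 0.04, and MLT1B, an abundant old MaLR LTR, at 0.22 ± 0.03, were higher than the repeats in general and stayed so without each library.

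**Figure D5:**
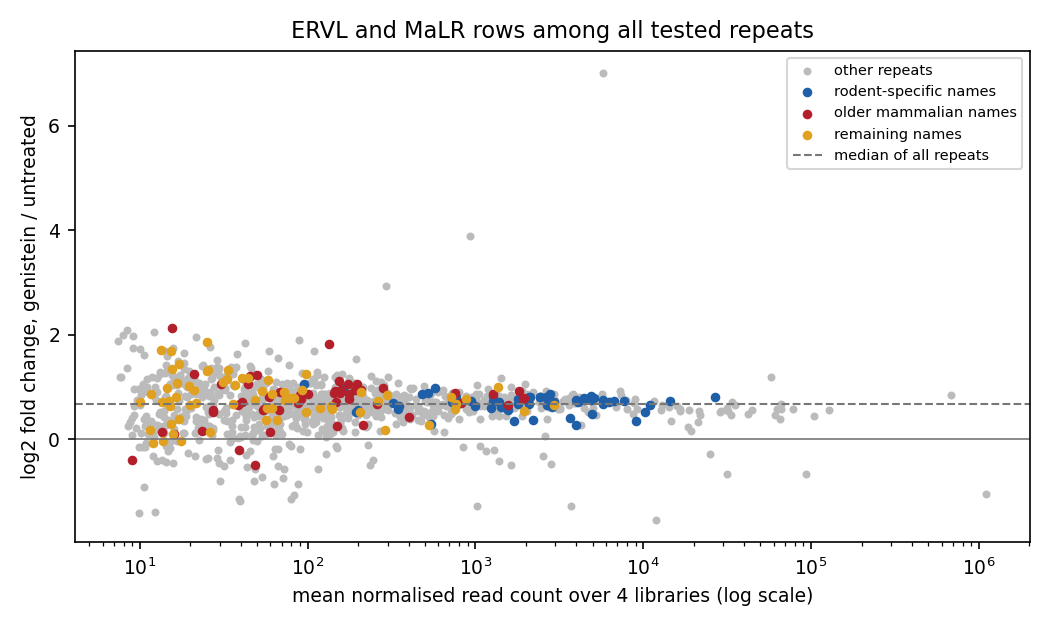
Log2 fold change (genistein over untreated, y axis) against the mean normalised read count over the 4 libraries (x axis, log scale) for all 1118 tested repeats, with rodent-specific names in blue, older mammalian names in red, remaining names in yellow and other repeats in grey; the dashed line is the median of all repeats, 0.69. The ERVL and MaLR rows lie around this line, with MLT2C1 at 1.81 standing apart among those over a mean count of 100. MLT2C1 reached that mean only through the genistein libraries.

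Other LTR families rose to a different extent. The median log2 fold change was 0.76 for the family ERVL, 0.73 for ERVL-MaLR, 0.61 for ERV1 and 0.56 for ERVK, the family that includes the intracisternal A-particles. Of 253 tested ERVK rows, 181 rose and 8 fell, and of 91 ERV1 rows 61 rose and 5 fell. Within libraries, the log2 ratio of ERVL and MaLR counts to ERVK counts was 0.38 and 0.43 in the untreated and 0.85 and 0.84 in the genistein libraries. Without MMETn-int, an ERVK row that fell by 1.54, it was 0.60 and 0.64 against 0.90 and 0.90. The ratio to ERV1 counts turned on a single row. It was 1.13 and 1.19 in the untreated and 0.99 and 0.98 in the genistein libraries, but MMVL30-int, whose log2 fold change was 1.20, held 51.5% of the ERV1 counts on average. Without that row the ratio was 2.01 and 2.08 before and 2.23 and 2.20 after genistein, so that its direction reversed. The groups did not overlap in any of these ratios.

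As a stand-in for RNA from introns, annotated genes of the GENCODE type TEC were taken, transcripts that still await experimental proof. Those used lie inside introns of protein-coding genes, on either strand. Of 581 such genes tested, 410 rose and 8 fell, with a median log2 fold change of 0.80, near that of the ERVL and MaLR rows. The 113 tested TEC genes that overlap no protein-coding gene had a median of 0.38, with 48 higher and 12 lower. Of all tested genes, 33.5% rose and 38.2% fell. Whether the reads of ERVL and MaLR rows came from introns, from longer transcripts or from promoters in the LTRs was not tested, since a row sums all copies.

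Many markers of other cell types had few counts or none. Of the macrophage list, Csf1r rose by 1.46 ± 0.10 on the log2 scale (SE, adjusted p = 1.9e-09) and Cd68 by 1.496 ± 0.14 (SE, adjusted p = 5.5e-08), and the list of 5 genes summed to 210, 192, 551 and 574 normalised counts. Nearly all of these counts were those of Csf1r and Cd68. Adgre1 had no count in any library, Ptprc had 1, 0, 0 and 1 and Itgam 0, 0, 5 and 4 raw counts. Desmin (Des), a muscle intermediate filament, rose from 36.96 and 29.64 to 283.2 and 264.2, while Myod1 had no count and Myog and Myh3 had 2 or fewer in each library. The epithelial keratin Krt8 fell from 395.6 and 412.9 to 124.7 and 117.4, and Krt18 from 48.95 and 44.47 to 8.439 and 5.061. Of the same list, Epcam and Krt5 had no count and Cdh1 had 7, 4, 4 and 8 raw counts. The endothelial list summed to 24.97, 30.71, 85.33 and 97.17, most of it from Kdr, with 15.98, 20.12, 68.45 and 74.9. Cdh5 had 1, 0, 0 and 0 raw counts, Pecam1 2, 6, 8 and 9 and Tek 6, 4, 10 and 13. The neural list summed to 40.0, 48.7, 43.1 and 51.6 and the pluripotency list to 33.0, 37.1, 48.8 and 56.7. Of the fibroblast list, 2 genes rose and 7 fell, and Dcn, which codes for decorin, passed all thresholds at 1.08 ± 0.05. The part of these genes or cells in the change of the repeats was not tested, and fewer cells of a type and less RNA per cell cannot be told apart in bulk RNA.

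The change was only weakly related to abundance. The median log2 fold change was 0.76 under a mean count of 100, 0.75 from 100 to 1000 and 0.73 over 1000. Across the 171 tested rows, Pearson's r between the log2 mean count and the log2 fold change was −0.08 and Spearman's rho −0.10. Over the 96 rows with a mean count over 100 these were −0.20 and −0.21, and over the 63 LTR rows among them −0.28 and −0.27. Over the 33 internal rows among the 96, the correlations were −0.18 and −0.11. They are descriptions over rows that share their libraries and are not independent. Precision followed the level. The median SE was 0.26 for the 75 rows with a mean count under 100, of which 48 were called higher, 0.11 for the 48 rows from 100 to 1000, of which 46 were called, and 0.04 for the 48 rows over 1000, all of which were called.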

How the data were processed

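The authors depleted ribosomal RNA with a stranded total RNA kit, used Trim Galore on the paired reads, STAR for alignment to mm10 (GRCm38) with many alignments kept, and TEtranscripts for counting. The strand setting of the counter is not given in the sources used here. Their deposited counts are whole numbers for each gene and repeat subfamily, without normalisation. Reads in gene exons go to the gene first, so repeats inside exons are undercounted, and similar subfamilies can share reads. The table had 49383 entries, and 1 entry without a name was set aside (0.00208% to 0.00314% of counts). Symbols were matched to 47224 of 47937 gene identifiers.

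Counts were analysed in R 4.3.3 with edgeR 4.0.16: filterByExpr by group (16240 genes and 1118 repeats passed), TMM scaling, the quasi-likelihood test and Benjamini-Hochberg adjustment over all kept entries. The SE is the log2 fold change divided by the square root of F. Sums of normalised counts over repeat rows use the tested rows. Shares of counts, ratios of sums within a library and sums over gene lists use all rows, also those not tested. TEC genes were placed with the GENCODE annotation on GRCm38. The test was checked on simulated counts. Replicates are separate libraries, since a chi-square test of their counts gave 5.76 and 13.2 per degree of freedom. PCR reads are not independent molecules, and counting errors are covered only as far as replicates vary.

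Members and gene lists were chosen with earlier results of these data known. Named rows were MERVL-int, MT2_Mm, the 2 most abundant rows of each name group, the 5 highest and 5 lowest changes over a mean count of 100, internal and LTR pairs, and listed genes past all thresholds. Other named rows were chosen after their values were seen. Thresholds follow the study's methods, which used DESeq2 (here 1.42.0, as an alternative). Other alternatives were scaling, filtering, thresholds, a replicate block and fits without each library. No sequences of repeats are printed.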

Additional observations from a re-analysis of the deposited data

Results flagged for a closer look

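The table has 5 further LTR rows whose family is written with a question mark, "ERVL?", and which the family rule leaves out. Of these, 2 were tested, LTR55 and LTR87. The summed normalised counts of the tested rows were 126.5 ± 27.7 in the untreated and 225.5 ± 14.0 in the genistein libraries (mean ± SD, n = 2). They were flagged because these rows lie outside the comparisons above and were higher than in the untreated libraries. LTR87 held most of these counts, with 97.9, 131.3, 213.8 and 193.3.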

How the results depend on the processing

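The 142 rows called higher at an adjusted p under 0.05 numbered 125 to 149 under the other scalings, without the filter, in DESeq2 and without each library, and 23 with the repeats fitted alone. The rows called lower, 0 at first, numbered 18 with the repeats alone, 1 without the filter and 0 to 1 without each library. The rows past all thresholds, 5 at first, numbered 11 with library totals, 8 with TMM from genes alone, 1 with the repeats alone, 29 with a mean count over 10, 1 with a mean count over 1000, and 4 to 17 without each library. The median of all tested rows, 0.74, was 0.81 with library totals, 0.049 with the repeats alone and 0.70 to 0.81 without each library. The median of rodent-specific names was 0.79 with library totals, 0.029 with the repeats alone and 0.67 to 0.78 without each library. The median of older names was 0.09 with the repeats alone, 0.88 over a mean count of 100 and 0.70 to 0.90 without each library. The difference of these medians, −0.06, was −0.16 over a mean count of 100, −0.13 for LTR rows only, −0.11 as a ratio of sums within a library (added after the data were seen) and −0.13 to −0.035 without each library. The changes with the repeats alone follow from centring on the repeats, since the median of all repeats moved from 0.69 to −0.01. The cause of the others was not tested.

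With the repeats fitted alone, 16 named rows turned negative: MERVL-int to −0.18, MT2B to −0.21, MTA_Mm to −0.029, MTA_Mm-int to −0.35, MTEa-int to −0.40, ORR1A0 to −0.34, ORR1A0-int to −0.42, ORR1A2-int to −0.29, ORR1A4-int to −0.33, MT-int to −0.52, MLT1-int to −0.44, MLT1K to −0.42, MLT2B3 to −0.019, RMER15 to −0.035, RMER10A to −0.15 and ERVL-B4-int to −0.41. In that fit, 9 to 17 rows were higher and 12 to 17 lower without each library, against 23 and 18 with all 4; these refits were added after the data were seen. The difference of the log2 ratio of ERVL and MaLR to ERV1 counts, −0.18, was 0.17 without MMVL30-int, and that of the ratio to ERVK counts, 0.43, was 0.28 without MMETn-int, both added after the data were seen. With a replicate block, 5 rows were past all thresholds, 141 were higher at an adjusted p under 0.05 and the median was 0.74. Same-numbered libraries did not deviate together (correlation −0.03 over all entries and −0.11 over ERVL and MaLR rows), so the numbers were not taken to pair the samples. Rows under a mean count of 100 had a median SE of 0.26, so changes of that size and larger ones could be missed there. LTR16A2, at 0.98 ± 0.44, did not pass (SE, adjusted p = 0.055, edgeR).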
